A study of Mus musculus with 12 samples.

Results

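Overexpression of progesterone receptor isoform B (PGR-B OE) in the pregnant mouse uterus was examined by RNA sequencing in 8 of the 12 libraries of the series, 4 PGR-B OE libraries and 4 controls, over every gene of the count table. The members were chosen by their labels alone. The other 4 libraries, in which isoform A was overexpressed (PGR-A OE), stayed out of the fit and of its estimate of the spread. Control mice had the genotype Myh11Cre, PGR-B OE mice Myh11Cre; LSLPGRB/+ and PGR-A OE mice Myh11Cre; LSLPGRA/+. All groups therefore carried the Myh11Cre driver, in which Cre follows the gene for smooth muscle myosin, expressed in smooth muscle of blood vessels as well as of the uterine wall. All samples are labelled as uterine tissue at 13.5 days post coitum (dpc), and the design text of the series places the overexpression in the myometrium, the muscle layer of the uterus. Age, strain, the layer that was dissected and whether replicates came from separate mice are not stated in the labels, so p-values measure the spread between these libraries, which may in part be technical.

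The progesterone receptor is a nuclear receptor that binds progesterone and then acts as a transcription factor. Its gene gives isoform B, the full-length protein, and isoform A, which lacks the amino-terminal stretch of B. Progesterone is known for keeping the myometrium quiet during pregnancy. Contractile hormones act on it largely through Gq-coupled receptors and phospholipase C, which produces IP3 and diacylglycerol, and IP3 releases calcium from the sarcoplasmic reticulum. Signals that raise cyclic AMP relax the muscle. The title of the series names the phospholipase C pathway and contractility as the subject of the isoform B comparison.

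The 8 libraries held 31872534 to 33078483 counts each, and no 2 replicates were identical or within sampling noise of each other. Control replicate 4 stood apart. Its summed level of decidual markers was 10387 CPM (edgeR's depth-scaled count unit), against 1100.1 to 1506 CPM in the other controls and 1864 to 2796 CPM in PGR-B OE. In the same library, 3 tested markers of the 14 for trophoblast and yolk sac summed to 14.4 CPM. That sum was 0.895 to 1.503 CPM in the other controls and 1.39 to 4.83 CPM in PGR-B OE. It leaves out 11 markers that were not tested, among them the yolk sac gene Afp. Afp had 164 counts in control replicate 2 and 7 in control replicate 4. PGR-B OE replicate 1 held the highest level of uterine natural killer cell markers, 54.6 CPM against 11.5 to 15.7 CPM in the other PGR-B OE libraries and 11.2 to 23.2 CPM in control. Smooth muscle markers were abundant in every library, summing to 12375 to 16197 CPM in the controls and 12052 to 15848 CPM in PGR-B OE.

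The receptor gene itself, Pgr (GRCm38 chr9:8899833-8968611, plus strand), stood at 141, 125, 109.6 and 105 CPM in control replicates 1 to 4 and 247, 216, 236 and 186 CPM in PGR-B OE replicates 1 to 4. Every PGR-B OE library lay above every control library. The mean rose 1.84-fold, from 120.3 ± 16.4 to 221 ± 26.4 CPM (SD, n = 4; log2 difference 0.88, SE 0.12, edgeR's quasi-likelihood test, Benjamini-Hochberg adjusted p = 0.0169). An exact two-sided permutation test gave p = 0.0286, the smallest that 4 against 4 libraries allow. Counts per gene do not separate the isoforms, or transgene from endogenous transcripts. Pgr kept its call in edgeR fits without control replicate 1 (adjusted p = 0.0284), control replicate 4 (0.0334), PGR-B OE replicate 3 (0.0400) and PGR-B OE replicate 4 (0.0248) and lost it without each other library, at 0.0553 to 0.0721. The log2 difference stayed between 0.82 and 0.96 in these 8 fits.

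Of 15302 genes tested, 44 passed the threshold of an adjusted p under 0.05, which is 0.288% of them. Of these, 40 were higher in PGR-B OE (0.261%) and 4 were lower (0.0261%), and 27 of the rises and 1 of the falls were at least 2-fold. In all 44 genes the groups did not overlap, which held for 5.66% of all genes tested, 3.03% with PGR-B OE higher and 2.63% with it lower. At an unadjusted p under 0.05 there were 1398 genes (9.14%). DESeq2 called 255 of 15252 genes (1.67%), 173 higher and 82 lower, among them all 44, so that 67.8% of its calls were rises against 90.9% with edgeR. Limma voom called 42 genes (0.274%), 40 of them among the 44. In 13 of the 40 rises the control mean was under 1 CPM, and 8 of the 44 genes had a mean under 1 CPM over the 8 libraries. Gene lists below were drawn up with earlier results known, so a count of called members is no independent result. Each list count stands beside these shares over all genes, 0.288% called and 9.14% at an unadjusted p under 0.05.

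**Figure D1:**
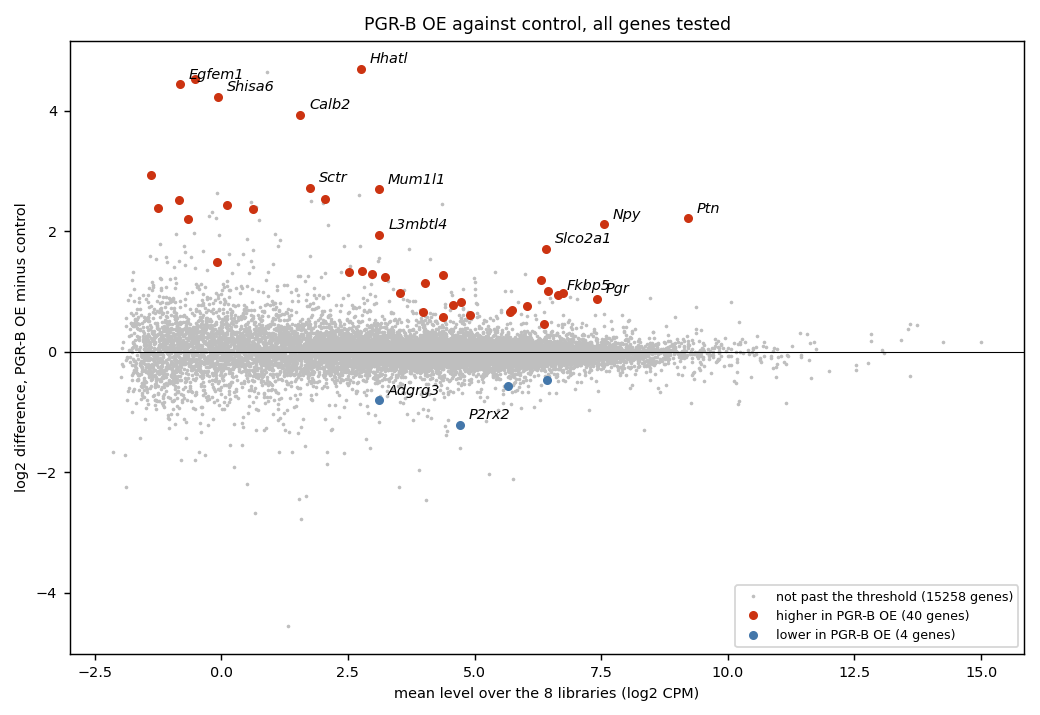
Log2 difference between PGR-B OE and control (vertical axis) against the mean level over the 8 libraries in log2 CPM (horizontal axis) for all 15302 genes tested; red points are the 40 genes that rose, blue points the 4 that fell and grey points the genes that did not pass. Hhatl has the largest rise among the called genes, and Ptn and Npy combine a rise of more than 2 on the log2 scale with a high level.

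Among the 40 genes that rose, 26 have a start-site window in the RefSeq promoter table of GRCm38.p6, and 3 of the 4 that fell. Each window runs from 250 bases before to 50 bases after an annotated start. They were searched for the 6-base half-site of the progesterone response element, AGAACA, on both strands, where the other strand reads TGTTCT, and for the full element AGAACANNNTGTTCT, which contains the half-site. The windows of 4 of the genes with the largest rises are shown, because Ptn and Rab3c hold a half-site and Hhatl and Npy do not. They are written 5′ to 3′ along the strand of the gene, with a half-site in capitals.
Ptn, chr6:36810130-36810429, minus strand: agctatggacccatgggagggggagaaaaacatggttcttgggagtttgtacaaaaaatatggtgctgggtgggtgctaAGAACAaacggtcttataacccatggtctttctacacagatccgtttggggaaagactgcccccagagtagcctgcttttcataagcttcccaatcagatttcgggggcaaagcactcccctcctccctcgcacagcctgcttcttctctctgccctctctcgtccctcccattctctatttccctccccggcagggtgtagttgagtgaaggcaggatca
Rab3c, chr13:110280157-110280456, minus strand: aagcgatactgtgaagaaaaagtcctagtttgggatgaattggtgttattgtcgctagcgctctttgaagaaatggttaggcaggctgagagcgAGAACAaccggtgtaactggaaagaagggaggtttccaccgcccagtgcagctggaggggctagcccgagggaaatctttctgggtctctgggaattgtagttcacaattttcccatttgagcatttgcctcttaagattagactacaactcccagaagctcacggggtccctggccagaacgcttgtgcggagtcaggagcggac
Hhatl, chr9:121792458-121792757, minus strand: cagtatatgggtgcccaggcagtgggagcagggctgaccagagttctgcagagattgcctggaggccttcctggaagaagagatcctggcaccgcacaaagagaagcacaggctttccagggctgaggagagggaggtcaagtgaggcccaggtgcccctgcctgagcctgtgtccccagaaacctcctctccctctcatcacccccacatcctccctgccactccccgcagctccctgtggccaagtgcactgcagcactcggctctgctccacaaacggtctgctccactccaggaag
Npy, chr6:49822460-49822759, plus strand: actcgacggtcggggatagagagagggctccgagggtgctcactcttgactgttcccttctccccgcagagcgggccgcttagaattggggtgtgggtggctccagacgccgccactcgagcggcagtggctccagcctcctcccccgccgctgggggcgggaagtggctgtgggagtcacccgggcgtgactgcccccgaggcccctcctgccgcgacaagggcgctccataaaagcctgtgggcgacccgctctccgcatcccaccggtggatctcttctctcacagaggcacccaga

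In Ptn the half-site lay 171 bases before the start and in Rab3c 156 bases before it. The half-site was found in 8 of the 26 risen genes with a window (30.8%), namely Ptn, Rab3c, Egfem1, Mchr1, Mpi, Slc26a1, Rprm and Ccdc141, and in none of the 3 genes that fell. Of all 11838 tested genes with a window, 15.3% held it, and by window it was in 25.8% of the 31 windows of risen genes, 13% of the 15035 windows of tested genes and 19% of all 32851 windows in the table. The full element was in no window of a called gene and in 2 of the tested genes (0.0169%). A match is a stretch of letters and no evidence of binding.

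The largest rise among genes with a mean of at least 1 CPM was in Hhatl (chr9:121784016-121792507, minus strand), a relative of the enzyme that attaches palmitate to hedgehog proteins. It stood at 0.576, 0.315, 0.720 and 0.384 CPM in control replicates 1 to 4 and 13.9, 10.5, 11.4 and 16.3 CPM in PGR-B OE replicates 1 to 4. The gene was close to undetected in all 4 controls and above 10 CPM in all 4 PGR-B OE libraries, a 25.97-fold difference (log2 difference 4.699, SE 0.26, edgeR adjusted p = 0.000146). Disp2, a relative of the transporter that releases hedgehog ligands, rose 2.45-fold from 4.54 ± 0.785 to 11.1 ± 1.98 CPM (SD, n = 4; log2 difference 1.29, SE 0.17, edgeR adjusted p = 0.0169). These were the called members among 21 tested genes of the hedgehog pathway. Hhatl stayed past the threshold in all 8 fits that left out 1 library, with an edgeR adjusted p of 0.000332 to 0.00161. Disp2 kept its call in edgeR fits without control replicate 3 (adjusted p = 0.0487), control replicate 4 (0.0385), PGR-B OE replicate 2 (0.0198) and PGR-B OE replicate 3 (0.0350) and lost it without each other library, at 0.0541 to 0.0693.

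No other gene of the hedgehog list passed in edgeR or limma voom, and DESeq2 also called Scube2 as higher. The list's median log2 difference was 0.24, against -0.005 over all genes tested, and 18 of 21 members were above 0. The acyltransferase gene Hhat differed by 0.06 on the log2 scale. Scube2, which helps release the ligand, stood at 17.8 ± 1.09 CPM in the controls and 25.01 ± 2.50 CPM in PGR-B OE (log2 difference 0.49, adjusted p = 0.0794 by edgeR, DESeq2 adjusted p = 0.000605), and Boc, a coreceptor, at 53.6 ± 2.07 CPM in the controls and 67.4 ± 8.57 CPM in PGR-B OE (log2 difference 0.33, adjusted p = 0.280). Gli1, a transcription factor and target of the pathway, stood at 4.70, 2.62, 5.67 and 4.58 CPM in the controls and 41.0, 3.86, 2.40 and 4.34 CPM in PGR-B OE. Its high value was in PGR-B OE replicate 1 alone, and it did not pass (log2 difference 1.56, SE 0.88, edgeR adjusted p = 0.645). The same library held 81 counts of the ligand gene Ihh, where the other 7 held 4 to 7.

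Secreted signals came next. Ptn (chr6:36714929-36810220, minus strand) encodes pleiotrophin, a heparin-binding growth factor, and stood at 199.6, 205, 169 and 267 CPM in control replicates 1 to 4 and 1029, 1012, 872 and 987 CPM in PGR-B OE replicates 1 to 4. The lowest PGR-B OE library was more than 3-fold above the highest control. The mean rose 4.64-fold, from 210.2 ± 41.4 to 975 ± 71.0 CPM (log2 difference 2.21, SE 0.14, edgeR adjusted p = 0.000234). Npy (chr6:49822710-49829507, plus strand), which encodes neuropeptide Y, a peptide transmitter of sympathetic nerves, stood at 52.5, 86.2, 73.5 and 68.5 CPM in control replicates 1 to 4 and 398, 285, 251 and 280.1 CPM in PGR-B OE replicates 1 to 4. PGR-B OE replicate 1 was the highest library and the groups lay far apart, with a 4.32-fold rise (log2 difference 2.11, SE 0.18, edgeR adjusted p = 0.00300). Ptn stayed past the threshold in all 8 fits that left out 1 library, with an edgeR adjusted p of 7.20e-05 to 0.00409. Npy stayed past the threshold in all 8 fits that left out 1 library, with an edgeR adjusted p of 0.00288 to 0.0147.

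Of the 18 tested genes for pleiotrophin, midkine and their receptors, Ptn was the only 1 called by edgeR and limma voom, and DESeq2 also called Ptprz1 as lower. Midkine, Mdk, stood at 20.8 ± 2.19 CPM in the controls and 34.2 ± 17.9 CPM in PGR-B OE (log2 difference 0.72, adjusted p = 0.518 by edgeR). PGR-B OE replicate 1 was at 60.8 CPM and the other 3 at 21.4 to 27.8 CPM, and without replicate 1 the log2 difference was 0.29. Ptprz1, a phosphatase that serves as a pleiotrophin receptor, stood at 15.5 ± 3.25 CPM in the controls and 8.65 ± 2.16 CPM in PGR-B OE, lower in all 4 PGR-B OE libraries than in any control, and did not pass in edgeR (log2 difference -0.85, adjusted p = 0.208, DESeq2 adjusted p = 0.0106). The median of this list was 0.02. Fgf7, a growth factor of the stroma, stood at 16.0 ± 3.34 CPM in the controls and 26.8 ± 4.50 CPM in PGR-B OE (log2 difference 0.75, adjusted p = 0.158), and none of 44 tested growth factor ligands and receptors passed, with 4 at an unadjusted p under 0.05. DESeq2 called Fgf7 and limma voom 0 of them.

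**Figure D2:**
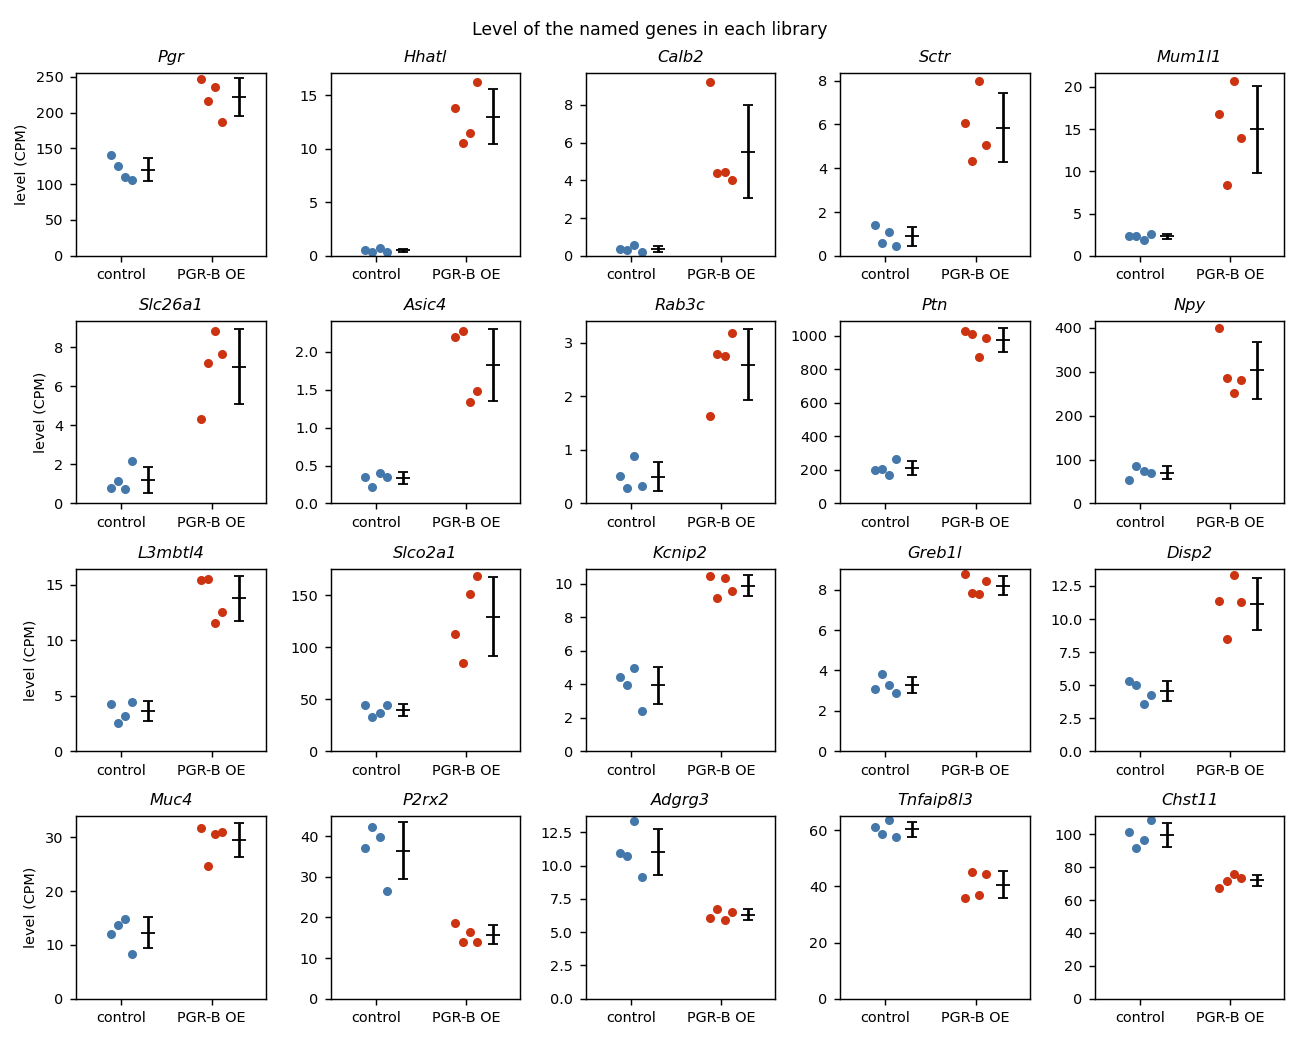
Level in CPM of Pgr, of the 15 called genes with the largest rises at a mean of at least 1 CPM and of the 4 genes that fell, in each control (blue) and PGR-B OE (red) library, replicates 1 to 4 from left to right; bars are the mean ± SD of the 4 libraries and each panel has its own axis from 0. In every panel the groups do not overlap.

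Receptors and enzymes of cyclic nucleotide signalling held 2 called genes of 41 tested in edgeR, both higher, and DESeq2 also called Pde7b, Pde8b and Prkar2b as higher. Sctr (chr1:120006894-120063536), the Gs-coupled receptor for secretin, stood at 1.41, 0.599, 1.10 and 0.443 CPM in control replicates 1 to 4 and 6.06, 4.34, 7.96 and 5.07 CPM in PGR-B OE replicates 1 to 4. The highest control was more than 3-fold below the lowest PGR-B OE library, and the mean was 6.61-fold higher (log2 difference 2.72, SE 0.35, edgeR adjusted p = 0.0163). Pde3b (chr7:114415281-114539251), a phosphodiesterase that breaks down cyclic AMP, stood at 41.6, 38.9, 43.4 and 39.5 CPM in control replicates 1 to 4 and 65.2, 62.0, 70.1 and 67.0 CPM in PGR-B OE replicates 1 to 4. Its libraries were tightly grouped, and the rise was 1.62-fold (log2 difference 0.69, SE 0.07, edgeR adjusted p = 0.00351). Sctr lost its call in edgeR fits without control replicate 2 (adjusted p = 0.0721) and PGR-B OE replicate 1 (0.0523) and kept it without each other library. Pde3b stayed past the threshold in all 8 fits that left out 1 library, with an edgeR adjusted p of 0.00848 to 0.0289.

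A further 4 members lay higher in every PGR-B OE library than in any control without passing the threshold. With the 2 called genes these were 6 of 41, against 3.03% of all genes tested. Pde8b, another cyclic AMP phosphodiesterase, stood at 9.83 ± 1.08 CPM in the controls and 17.5 ± 3.79 CPM in PGR-B OE (log2 difference 0.83, adjusted p = 0.0769 by edgeR). Prkar2b, a regulatory subunit of protein kinase A, stood at 11.5 ± 1.55 CPM in the controls and 18.7 ± 2.35 CPM in PGR-B OE (log2 difference 0.70, adjusted p = 0.0728). Pde7b and Vipr1, the receptor for vasoactive intestinal peptide, had log2 differences of 0.46 and 0.74. The median of the list was 0.03, near that of all genes. Mchr1, the receptor for melanin-concentrating hormone, is on none of the lists and rose from 10.2 ± 2.12 to 22.4 ± 1.95 CPM (log2 difference 1.14, SE 0.15, edgeR adjusted p = 0.0175). Mchr1 kept its call in edgeR fits without control replicate 3 (adjusted p = 0.0470), control replicate 4 (0.00463) and PGR-B OE replicate 3 (0.0370) and lost it without each other library, at 0.0553 to 0.0718. Adgrg3, an adhesion G protein-coupled receptor, fell from 11.0 ± 1.73 to 6.31 ± 0.405 CPM (log2 difference -0.81, SE 0.13, edgeR adjusted p = 0.0433). Adgrg3 kept its call in edgeR fits without control replicate 4 (adjusted p = 0.0232) and lost it without each other library, at 0.0834 to 0.148.

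Slco2a1 (chr9:102988712-103096002, plus strand) encodes the transporter that takes prostaglandins into cells for breakdown. It stood at 44.0, 33.3, 36.6 and 44.4 CPM in control replicates 1 to 4 and 113, 85.0, 151 and 169 CPM in PGR-B OE replicates 1 to 4. PGR-B OE replicate 2 was the lowest of its group and still close to 2-fold above the highest control, and the mean rose 3.28-fold (log2 difference 1.71, SE 0.21, edgeR adjusted p = 0.0150). No other of 17 tested genes of prostaglandin synthesis and breakdown passed in edgeR, DESeq2 or limma voom. The cyclooxygenases Ptgs1 and Ptgs2 had log2 differences of 0.82 and 0.82 (edgeR adjusted p = 0.550 and 0.498). Ptgs1 was highest in PGR-B OE replicate 3, at 201 CPM, and Ptgs2 in replicate 1, at 17.95 CPM. Without those libraries the log2 differences were 0.43 and 0.43. Exons of Slco2a1 overlap a gene model on the opposite strand, so its counts are uncertain. Slco2a1 lost its call in edgeR fits without control replicate 1 (adjusted p = 0.0580) and control replicate 2 (0.0693) and kept it without each other library.

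Fkbp5 (chr17:28399094-28517527, minus strand), a cochaperone of steroid receptors and a known target of them, stood at 67.9, 57.5, 69.2 and 79.6 CPM in control replicates 1 to 4 and 124, 118, 166 and 118 CPM in PGR-B OE replicates 1 to 4. All PGR-B OE libraries exceeded all controls, with replicate 3 the highest, and the rise was 1.92-fold (log2 difference 0.94, SE 0.13, edgeR adjusted p = 0.0277). Among 36 tested progesterone-responsive genes it was the only 1 called by edgeR and limma voom, and DESeq2 also called Errfi1. Of that list 28 members were above 0 and the median was 0.15, with 6 members at an unadjusted p under 0.05. Errfi1, an inhibitor of EGF receptor signalling, stood at 249 ± 15.8 CPM in the controls and 324 ± 38.3 CPM in PGR-B OE without overlap (log2 difference 0.38, adjusted p = 0.227 by edgeR, DESeq2 adjusted p = 0.0180). Hoxa11 and Hand2, transcription factors of the uterine stroma and muscle, had log2 differences of 0.62 and 0.56 with adjusted p of 0.384 and 0.470, and both were highest in PGR-B OE replicate 1. Fkbp5 kept its call in edgeR fits without control replicate 4 (adjusted p = 0.0232) and PGR-B OE replicate 3 (0.0211) and lost it without each other library, at 0.0593 to 0.105.

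The other steroid genes did not pass. Of 25 tested receptors and coregulators Pgr and Fkbp5 were the ones called, and the median was -0.01. Ncoa3 and Ncor1, a coactivator and a corepressor, differed by -0.12 and -0.13 on the log2 scale (edgeR adjusted p = 0.697 and 0.622). None of 15 tested genes of steroid metabolism passed, and 2 had an unadjusted p under 0.05. Akr1c14 was called by DESeq2 and no member by limma voom. Akr1c14, a 3-alpha-hydroxysteroid dehydrogenase, stood at 79.0 ± 20.3 CPM in the controls and 41.2 ± 7.34 CPM in PGR-B OE, without overlap (log2 difference -0.94, adjusted p = 0.138).

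Genes of vesicle release and neuronal type held 4 called members of 41 tested, all higher, with a list median of 0.02. The share called over all genes tested was 0.288%. This list was drawn up with earlier results of these data known, so its count is no independent result. They were Npy, described above, Calb2, Asic4 and Rab3c. Calb2 (chr8:110137502-110168210, minus strand), the calcium-binding protein calretinin, stood at 0.352, 0.315, 0.564 and 0.207 CPM in control replicates 1 to 4 and 9.23, 4.37, 4.44 and 4.04 CPM in PGR-B OE replicates 1 to 4. PGR-B OE replicate 1 was about 2-fold above its group and every PGR-B OE library was more than 7-fold above the highest control, for a 15.3-fold rise (log2 difference 3.93, SE 0.38, edgeR adjusted p = 0.00351). Asic4, a member of the acid-sensing ion channel family, rose 5.42-fold from 0.333 ± 0.0793 to 1.83 ± 0.479 CPM (log2 difference 2.44, SE 0.29, edgeR adjusted p = 0.0118). Rab3c, a small GTPase of secretory vesicles, rose 5.16-fold from 0.499 ± 0.270 to 2.59 ± 0.664 CPM (log2 difference 2.37, SE 0.37, edgeR adjusted p = 0.0383). Exons of Asic4 overlap a gene model on the opposite strand, so its counts are uncertain. Calb2 stayed past the threshold in all 8 fits that left out 1 library, with an edgeR adjusted p of 0.00305 to 0.0292. Asic4 lost its call in edgeR fits without control replicate 1 (adjusted p = 0.0541) and kept it without each other library. Rab3c kept its call in edgeR fits without control replicate 3 (adjusted p = 0.0249) and PGR-B OE replicate 1 (0.0433) and lost it without each other library, at 0.0663 to 0.138.

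Shisa6 and Gsg1l, both auxiliary proteins of AMPA-type glutamate receptors, were also among the called genes, at under 1 CPM over the 8 libraries. Shisa6 stood at 0.0320, 0.126, 0.0626 and 0.148 CPM in control replicates 1 to 4 and 2.14, 1.93, 1.69 and 1.49 CPM in PGR-B OE replicates 1 to 4 (log2 difference 4.23, SE 0.36, edgeR adjusted p = 0.00238). All controls were near 0 and all PGR-B OE libraries above 1.4 CPM. Gsg1l had a log2 difference of 2.94 (edgeR adjusted p = 0.0427). Markers of Schwann cells and neurons, of which 6 of 12 were tested, summed to 91.0 to 119 CPM in the controls and 73.3 to 125 CPM in PGR-B OE, and none of them passed. Snap25, a defining neuronal gene, had 3 to 17 counts in the controls, 13 in PGR-B OE replicate 1 and 0 in the other PGR-B OE libraries. Shisa6 stayed past the threshold in all 8 fits that left out 1 library, with an edgeR adjusted p of 0.00363 to 0.0147. Gsg1l kept its call in edgeR fits without control replicate 4 (adjusted p = 0.0441) and lost it without each other library, at 0.0588 to 0.162.

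The largest fall among the called genes was in P2rx2 (chr5:110339812-110343212, minus strand), a subunit of ATP-gated cation channels. It stood at 37.2, 42.4, 39.8 and 26.5 CPM in control replicates 1 to 4 and 18.7, 13.9, 16.4 and 13.9 CPM in PGR-B OE replicates 1 to 4. Control replicate 4 was the lowest control and still above every PGR-B OE library, and the gene fell 2.32-fold (log2 difference -1.21, SE 0.16, edgeR adjusted p = 0.0163). Of 29 tested purinergic receptors and nucleotide enzymes, whose median was -0.06, it was the only 1 called by edgeR and limma voom, and DESeq2 also called Nt5e as higher. The list's log2 differences ran from -2.02 to 1.45. Without overlap between the groups, 3 members were lower, P2rx2 among them, and 2 were higher, against 2.63% and 3.03% of all genes tested. Among further channel subunits, P2rx4 and P2rx7 had means of 53.2 ± 6.97 CPM in the controls and 48.7 ± 9.03 CPM in PGR-B OE and of 31.1 ± 3.68 CPM in the controls and 29.4 ± 1.90 CPM in PGR-B OE. Nt5e, which makes adenosine from AMP, stood at 57.9 ± 8.27 CPM in the controls and 88.4 ± 8.72 CPM in PGR-B OE without overlap (log2 difference 0.61, adjusted p = 0.0735 by edgeR, DESeq2 adjusted p = 0.000224). P2rx2 kept its call in edgeR fits without control replicate 3 (adjusted p = 0.0487), control replicate 4 (0.00363), PGR-B OE replicate 1 (0.0286) and PGR-B OE replicate 3 (0.0400) and lost it without each other library, at 0.0635 to 0.0686.

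Of 44 tested potassium channel genes Kcnip2, an auxiliary subunit of Kv4 channels, was called by edgeR and limma voom, and DESeq2 also called Kcnc4 as higher and Kcne4 as lower. It rose 2.52-fold from 3.92 ± 1.10 to 9.88 ± 0.621 CPM (log2 difference 1.33, SE 0.20, edgeR adjusted p = 0.0318). The list held 12 genes at an unadjusted p under 0.05, and its median was 0.07. Kcnc4 stood at 0.959 ± 0.240 CPM in the controls and 3.49 ± 1.51 CPM in PGR-B OE (log2 difference 1.86, adjusted p = 0.0628 by edgeR), higher in every PGR-B OE library. Kcne4, an inhibitory subunit of voltage-gated channels, stood at 65.8 ± 12.999 CPM in the controls and 41.4 ± 4.50 CPM in PGR-B OE (log2 difference -0.67, adjusted p = 0.145), lower in every PGR-B OE library. Kcnip2 kept its call in edgeR fits without control replicate 3 (adjusted p = 0.0470) and control replicate 4 (0.00811) and lost it without each other library, at 0.0645 to 0.138.

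None of the 14 tested phospholipase C genes passed the threshold, and 2 had an unadjusted p under 0.05. Of all genes tested 0.288% passed and 9.14% had an unadjusted p under 0.05. At such a share few lists of this size would hold a call, so the absence is no result about the pathway. Plcl2, a catalytically inactive relative that binds IP3, stood at 29.0, 38.1, 28.1 and 39.5 CPM in control replicates 1 to 4 and 48.3, 46.9, 47.6 and 52.5 CPM in PGR-B OE replicates 1 to 4. All PGR-B OE libraries were above all controls (log2 difference 0.54, SE 0.12, edgeR adjusted p = 0.146). Plcd4 stood at 2.97, 3.12, 3.10 and 1.98 CPM in the controls and 1.44, 1.49, 1.69 and 1.52 CPM in PGR-B OE. Every PGR-B OE library was below every control, and this did not pass either (log2 difference -0.86, SE 0.19, edgeR adjusted p = 0.155). Plcl1 and Plcb3 differed by -0.15 and -0.08 on the log2 scale, with adjusted p of 0.795 and 0.778. The list's median was -0.05. DESeq2 called 2 genes of this list, Plcl2 as higher (DESeq2 adjusted p = 0.00525) and Plcd4 as lower, and limma voom called 0.

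Downstream of it, 0 of 43 tested genes for Gq proteins, IP3 receptors, protein kinase C and diacylglycerol kinases passed in edgeR, 7 had an unadjusted p under 0.05, DESeq2 and limma voom called 0, and the median was -0.01. Prkcb, a protein kinase C, stood at 46.7 ± 6.93 CPM in the controls and 60.7 ± 4.06 CPM in PGR-B OE (log2 difference 0.38, adjusted p = 0.316 by edgeR), and Stim1, the sensor of the calcium store, at 62.2 ± 2.68 CPM in the controls and 78.6 ± 10.4 CPM in PGR-B OE (log2 difference 0.34, adjusted p = 0.286). Both were higher in every PGR-B OE library. None of 23 tested genes of the calcium store passed in edgeR or limma voom, 4 had an unadjusted p under 0.05, and DESeq2 called Casq2 alone. Casq2, the calcium-binding protein of the store, stood at 13.5, 19.1, 32.0 and 18.8 CPM in the controls and 35.8, 39.8, 49.2 and 47.7 CPM in PGR-B OE. Its groups did not overlap, and it did not pass (log2 difference 1.05, SE 0.24, edgeR adjusted p = 0.173).

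Contraction-associated genes likewise held no call among 25 tested, with 6 at an unadjusted p under 0.05 and a median of -0.01, and DESeq2 and limma voom called 0 as well. The shares over all genes tested were 0.288% called and 9.14% at an unadjusted p under 0.05. Oxtr, the oxytocin receptor, stood at 6.17, 7.63, 9.58 and 7.74 CPM in the controls and 4.54, 6.20, 5.31 and 3.89 CPM in PGR-B OE. The groups overlapped (log2 difference -0.64, SE 0.18, edgeR adjusted p = 0.300). Cacna1h, a T-type calcium channel, stood at 48.2 ± 3.05 CPM in the controls and 37.2 ± 5.35 CPM in PGR-B OE without overlap (log2 difference -0.37, adjusted p = 0.307). The gap junction gene Gja1 differed by -0.20 on the log2 scale (adjusted p = 0.737). Of 35 tested smooth muscle contractile genes none passed in edgeR, DESeq2 or limma voom and 5 had an unadjusted p under 0.05 in edgeR, and the median was -0.05. Myh11, whose gene the Cre driver follows, stood at 2726 ± 319 CPM in the controls and 3350.1 ± 407 CPM in PGR-B OE (log2 difference 0.30, adjusted p = 0.506).

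**Figure D3:**
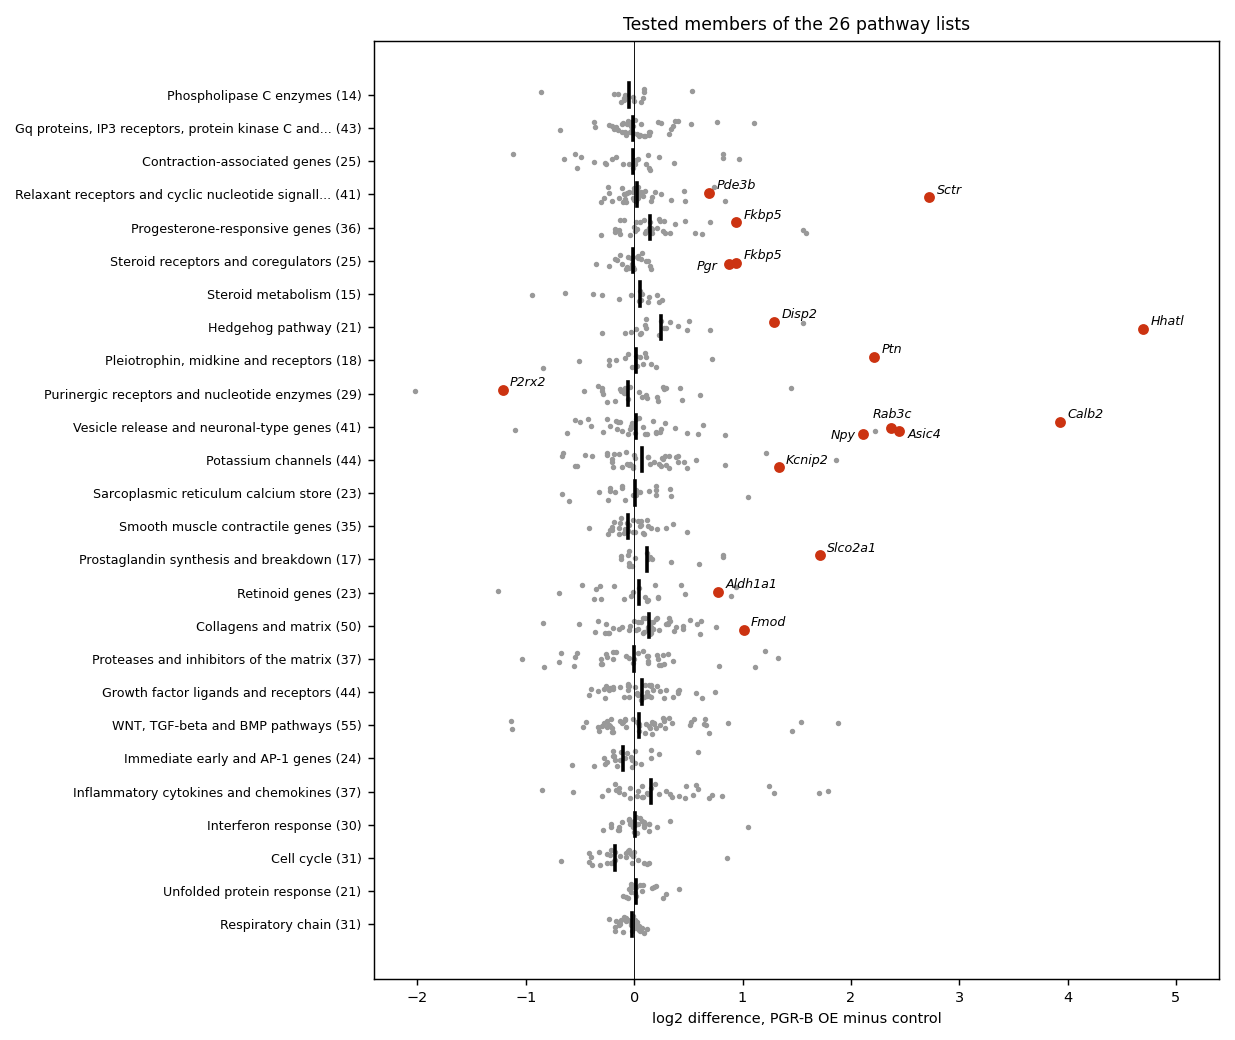
Log2 difference between PGR-B OE and control (horizontal axis) of every tested member of the 26 pathway lists (rows, with the number of tested members in parentheses); red points passed the threshold and are named, grey points did not, and each black bar is the median of a list. Hhatl, Calb2 and Sctr lie farthest to the right.

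Among matrix genes, Fmod, the collagen-binding proteoglycan fibromodulin, was the only gene called by edgeR of 50 tested collagens and matrix genes. It rose 2.02-fold from 58.0 ± 4.54 to 117 ± 28.8 CPM (log2 difference 1.01, SE 0.15, edgeR adjusted p = 0.0362). The list's median was 0.14, 37 members were above 0 and 18 had an unadjusted p under 0.05. DESeq2 called 8 members as higher, namely Fmod, Prelp, Col1a1, Col1a2, Col3a1, Col6a3, Col14a1 and Col15a1, and Fn1 as lower, while limma voom called Fmod alone. Higher in every PGR-B OE library, without passing, were 8 further members, among them Col15a1, at 490.4 ± 41.1 CPM in the controls and 825 ± 144 CPM in PGR-B OE (log2 difference 0.75, adjusted p = 0.0547 by edgeR), and Col14a1 (log2 difference 0.51, adjusted p = 0.0794). With Fmod these were 9 of 50, against 3.03% of all genes tested. Fn1, which encodes fibronectin, stood at 2340.3, 3486, 3222 and 2614 CPM in the controls and 1494, 1746, 1401 and 1861 CPM in PGR-B OE, lower in every PGR-B OE library, and did not pass (log2 difference -0.84, adjusted p = 0.0628). Fmod kept its call in edgeR fits without PGR-B OE replicate 1 (adjusted p = 0.0186) and PGR-B OE replicate 3 (0.0199) and lost it without each other library, at 0.0553 to 0.148.

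Further genes of the cell surface and matrix are on none of the lists. Abi3bp, a secreted matrix protein, rose from 72.4 ± 7.68 to 142 ± 21.1 CPM (log2 difference 0.97, SE 0.12, edgeR adjusted p = 0.0126). Col4a4, a basement membrane collagen, rose 2.36-fold (log2 difference 1.24, SE 0.15, edgeR adjusted p = 0.0126). Cpz, a carboxypeptidase of the extracellular space, rose 1.69-fold (log2 difference 0.76, SE 0.09, edgeR adjusted p = 0.0143). Muc4, a membrane mucin, rose 2.40-fold from 12.3 ± 2.86 to 29.5 ± 3.21 CPM (log2 difference 1.27, SE 0.17, edgeR adjusted p = 0.0169). Its exons overlap those of Muc20 on the opposite strand, and its counts are uncertain. Chst11, a sulfotransferase of chondroitin, fell from 99.7 ± 7.34 to 72.0 ± 3.56 CPM (log2 difference -0.47, SE 0.07, edgeR adjusted p = 0.0398). Adamts3, a protease of procollagens, missed the threshold (log2 difference -0.55, adjusted p = 0.0513), and none of 37 tested proteases and inhibitors of the matrix passed, with 10 at an unadjusted p under 0.05. DESeq2 called Adamts3, Adamts19 and Mmp15 as lower, and limma voom called 0. Abi3bp lost its call in edgeR fits without control replicate 1 (adjusted p = 0.0582) and PGR-B OE replicate 2 (0.0523) and kept it without each other library. Col4a4 lost its call in edgeR fits without control replicate 1 (adjusted p = 0.0580) and kept it without each other library. Cpz lost its call in edgeR fits without control replicate 1 (adjusted p = 0.0642) and kept it without each other library. Muc4 kept its call in edgeR fits without control replicate 3 (adjusted p = 0.0301), control replicate 4 (0.00698), PGR-B OE replicate 2 (0.0472) and PGR-B OE replicate 3 (0.0433) and lost it without each other library, at 0.0579 to 0.0798. Chst11 lost its call whichever of the 8 libraries was left out, at an edgeR adjusted p of 0.0554 to 0.142.

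Markers of fibroblasts and stroma were followed beside these genes. Col1a1 and Col1a2 are on both lists. All 10 markers were tested and none passed in edgeR or limma voom, 3 had an unadjusted p under 0.05, DESeq2 called Col1a1 and Col1a2, and their summed level was 25048 to 26572 CPM in the controls and 29945 to 37514 CPM in PGR-B OE, without overlap. Most of that sum came from Col1a1, at 11553 ± 594 CPM in the controls and 15768 ± 1573 CPM in PGR-B OE, and Col1a2, at 10452 ± 458 CPM in the controls and 14319 ± 1453 CPM in PGR-B OE, while Dcn stood at 1344 ± 199 CPM in the controls and 1373 ± 197 CPM in PGR-B OE and Gsn at 805 ± 120.1 CPM in the controls and 838 ± 145 CPM in PGR-B OE. The median log2 difference of the 10 markers was 0.08. Their part in the matrix results was not tested. In whole tissue, a change in the number of cells of a type and a change in RNA per cell cannot be told apart.

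Genes of metabolism were called as well. Aldh1a1, which makes retinoic acid from retinaldehyde, rose from 17.5 ± 2.25 to 29.9 ± 3.23 CPM (log2 difference 0.77, SE 0.11, edgeR adjusted p = 0.0310) and was the only gene of 23 tested retinoid genes called by edgeR and limma voom. Its near-identical relative Aldh1a7 stood at 2.45 ± 1.04 CPM in the controls and 4.68 ± 0.950 CPM in PGR-B OE (log2 difference 0.94, adjusted p = 0.391 by edgeR), and reads shared between them are uncertain. Abat, which breaks down GABA, and Mpi, a mannose phosphate isomerase, had log2 differences of 0.65 and 0.60 (adjusted p = 0.0169 and 0.0435). Aldh1a1 kept its call in edgeR fits without control replicate 4 (adjusted p = 0.0275) and lost it without each other library, at 0.0554 to 0.117. Abat lost its call in edgeR fits without control replicate 1 (adjusted p = 0.0798), PGR-B OE replicate 1 (0.0553) and PGR-B OE replicate 2 (0.0588) and kept it without each other library. Mpi lost its call whichever of the 8 libraries was left out, at an edgeR adjusted p of 0.0537 to 0.159.

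Other strong rises lay outside the lists. Mum1l1, a PWWP domain protein, stood at 2.30, 2.40, 1.85 and 2.63 CPM in control replicates 1 to 4 and 16.8, 8.42, 20.7 and 13.9 CPM in PGR-B OE replicates 1 to 4. PGR-B OE replicate 2 was the lowest of its group and more than 3-fold above the highest control, and the rise was 6.50-fold (log2 difference 2.702, SE 0.26, edgeR adjusted p = 0.00351). L3mbtl4, a protein of the family that reads methylated histones, stood at 4.25, 2.52, 3.13 and 4.40 CPM in control replicates 1 to 4 and 15.5, 15.5, 11.5 and 12.5 CPM in PGR-B OE replicates 1 to 4. Its groups lay well apart, with a 3.85-fold rise (log2 difference 1.94, SE 0.19, edgeR adjusted p = 0.00351). Greb1l, a relative of the estrogen-induced gene Greb1, rose 2.50-fold from 3.27 ± 0.414 to 8.20 ± 0.475 CPM (log2 difference 1.32, SE 0.13, edgeR adjusted p = 0.00351). Mum1l1 stayed past the threshold in all 8 fits that left out 1 library, with an edgeR adjusted p of 0.00133 to 0.0292. L3mbtl4 stayed past the threshold in all 8 fits that left out 1 library, with an edgeR adjusted p of 0.00463 to 0.0226. Greb1l stayed past the threshold in all 8 fits that left out 1 library, with an edgeR adjusted p of 0.00698 to 0.0257.

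Of the remaining called genes, Slc26a1, a transporter of sulfate, rose 5.76-fold from 1.21 ± 0.659 to 7.02 ± 1.92 CPM (log2 difference 2.53, SE 0.36, edgeR adjusted p = 0.0282), and its exons overlap Idua on the opposite strand, which leaves its counts uncertain. Susd5 rose 1.97-fold (edgeR adjusted p = 0.0447). Rprm, a p53-induced inhibitor of the cell cycle, rose 1.76-fold (adjusted p = 0.0126), and Stc2, a secreted stanniocalcin, 1.58-fold (adjusted p = 0.0318). Ccdc92 and Ccdc141 rose 1.49-fold and 1.37-fold (adjusted p = 0.0282 and 0.0143). Tnfaip8l3, a phosphoinositide transfer protein, fell from 60.2 ± 2.72 to 40.6 ± 4.78 CPM (adjusted p = 0.0408). Slc26a1 kept its call in edgeR fits without control replicate 4 (adjusted p = 0.00581) and PGR-B OE replicate 1 (0.0328) and lost it without each other library, at 0.0585 to 0.138. Susd5 lost its call whichever of the 8 libraries was left out, at an edgeR adjusted p of 0.0644 to 0.145. Rprm lost its call in edgeR fits without control replicate 1 (adjusted p = 0.0580) and kept it without each other library. Stc2 lost its call whichever of the 8 libraries was left out, at an edgeR adjusted p of 0.0523 to 0.138. Ccdc92 kept its call in edgeR fits without control replicate 3 (adjusted p = 0.0487) and lost it without each other library, at 0.0511 to 0.126. Ccdc141 lost its call in edgeR fits without control replicate 1 (adjusted p = 0.0775) and PGR-B OE replicate 4 (0.0607) and kept it without each other library. Tnfaip8l3 lost its call whichever of the 8 libraries was left out, at an edgeR adjusted p of 0.0537 to 0.140.

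At under 1 CPM over the 8 libraries, Egfem1 stood at 0.0320, 0.0315, 0.0626 and 0.0591 CPM in control replicates 1 to 4 and 1.14, 0.665, 0.735 and 1.82 CPM in PGR-B OE replicates 1 to 4 (log2 difference 4.44, SE 0.49, edgeR adjusted p = 0.00839). Each control value rests on 1 or 2 counts, so the fold is imprecise. Cpvl, a serine carboxypeptidase, stood at 0.00, 0.0631, 0.125 and 0.0295 CPM in control replicates 1 to 4 and 1.61, 1.33, 0.352 and 2.03 CPM in PGR-B OE replicates 1 to 4 (log2 difference 4.52, SE 0.72, edgeR adjusted p = 0.0433). Pappa2, a protease of IGF-binding proteins, and Dupd1, a phosphatase, had log2 differences of 2.52 and 2.202 (edgeR adjusted p = 0.0318 and 0.0427). Wfdc6a, a small secreted protein with a close relative in Wfdc6b, differed by 1.49 (adjusted p = 0.0318). Exons of Pappa2 overlap another gene model, and its counts are uncertain. Egfem1 stayed past the threshold in all 8 fits that left out 1 library, with an edgeR adjusted p of 0.00886 to 0.0465. Cpvl kept its call in edgeR fits without PGR-B OE replicate 3 (adjusted p = 0.00886) and lost it without each other library, at 0.0678 to 0.180. Pappa2 kept its call in edgeR fits without control replicate 3 (adjusted p = 0.0359) and lost it without each other library, at 0.0523 to 0.148. Dupd1 kept its call in edgeR fits without control replicate 3 (adjusted p = 0.0495) and lost it without each other library, at 0.0690 to 0.148. Wfdc6a kept its call in edgeR fits without control replicate 3 (adjusted p = 0.0491) and lost it without each other library, at 0.0523 to 0.145.

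**Figure D4:**
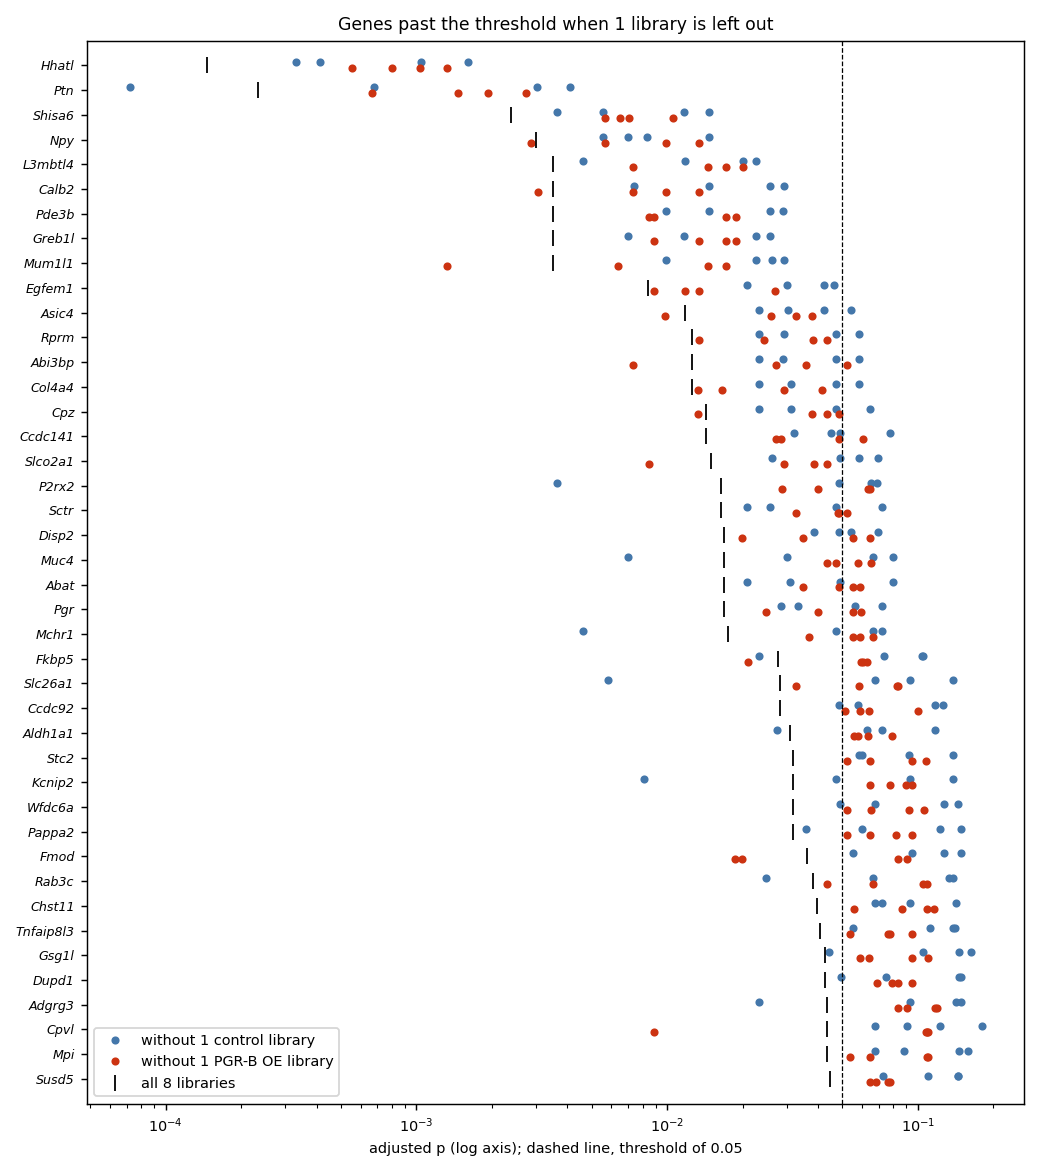
Adjusted p of called genes, 1 per row (log axis), in the fit of all 8 libraries (black bar) and in the 8 fits that left out 1 control (blue) or 1 PGR-B OE library (red), with the threshold of 0.05 as a dashed line. 10 genes, from Hhatl to Egfem1, stay left of the line in all 8 fits, while Susd5, Stc2, Mpi, Chst11 and Tnfaip8l3 lie right of it in each of them.

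The number of calls moved with single libraries. Leaving out a control library gave 13 calls for replicate 1, 18 for replicate 2, 38 for replicate 3 and 47 for replicate 4. Leaving out a PGR-B OE library gave 23, 22, 40 and 23 calls in the same order. The genes called in all 8 of these fits were Hhatl, Ptn, Shisa6, Npy, L3mbtl4, Calb2, Pde3b, Greb1l, Mum1l1 and Egfem1. Those called in none of them included Susd5, Stc2, Mpi, Chst11 and Tnfaip8l3. Without control replicate 4, which stood apart in decidual markers, 31 of the 44 genes were called, and without PGR-B OE replicate 1, with the highest natural killer cell markers, 21 of them. When all 12 libraries shared 1 fit, 31 of the 44 were called. The 13 lost had an edgeR adjusted p of 0.0564 to 0.539 and included Cpvl, Gsg1l, Pappa2, Disp2, Fmod, Susd5, Abi3bp, Rprm, Stc2, Ccdc141, Tnfaip8l3 and Adgrg3.

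Over all genes tested, 0.288% were called and 9.14% had an unadjusted p under 0.05. Several lists held no called gene. They were 24 immediate early and AP-1 genes (median -0.10, 0 at an unadjusted p under 0.05 in edgeR), 31 cell cycle genes (median -0.17, 2 at an unadjusted p under 0.05), 55 WNT, TGF-beta and BMP genes (median 0.04, 12), 37 cytokines and chemokines (median 0.16, 6), 30 interferon response genes (median 0.004, 2), 21 genes of the unfolded protein response (median 0.01, 0) and 31 respiratory chain genes (median -0.02, 2). The cell cycle genes summed to 1837 CPM in control replicate 4, 949.5 to 1096 CPM in the other 3 controls and 993 to 1243 CPM in PGR-B OE. Limma voom called 0 genes of these lists. DESeq2 called Cdkn1c, Xaf1, the chemokine gene Cx3cl1, Csf3, Id2 and Id3 as higher and Wnt5b as lower, and 0 genes of the other 3 lists. Cdkn1c, an inhibitor of the cell cycle, stood at 19.2 ± 2.07 CPM in the controls and 34.8 ± 7.93 CPM in PGR-B OE without overlap (log2 difference 0.86, adjusted p = 0.0628 by edgeR). Xaf1, an interferon-induced gene, stood at 17.8 ± 1.32 CPM in the controls and 36.7 ± 11.5 CPM in PGR-B OE without overlap (log2 difference 1.05, adjusted p = 0.139).

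Other cell types were followed by their markers, and no marker of the 17 lists passed in edgeR or limma voom, while DESeq2 called Mmrn1 and Prox1 as lower and Col1a1 and Col1a2 as higher. Lymphatic endothelium markers were lower, with 5 of 6 tested at an unadjusted p under 0.05 in edgeR and a summed level of 331 to 376 CPM in the controls and 223 to 308 CPM in PGR-B OE, without overlap. Among them, Mmrn1 stood at 68.3 ± 12.5 CPM in the controls and 43.5 ± 4.98 CPM in PGR-B OE and Lyve1 at 116 ± 22.2 CPM in the controls and 83.3 ± 9.07 CPM in PGR-B OE. Markers of blood endothelium summed to 787 to 873 CPM in the controls and 748 to 900.1 CPM in PGR-B OE, those of macrophages to 1551 to 1801 CPM and 1244 to 1896 CPM, and those of epithelium to 1671 to 2222 CPM and 1636 to 2558 CPM. The hemoglobin genes Hba-a1, Hba-a2, Hbb-bs and Hbb-bt had 0 counts in all 8 libraries.

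**Figure D5:**
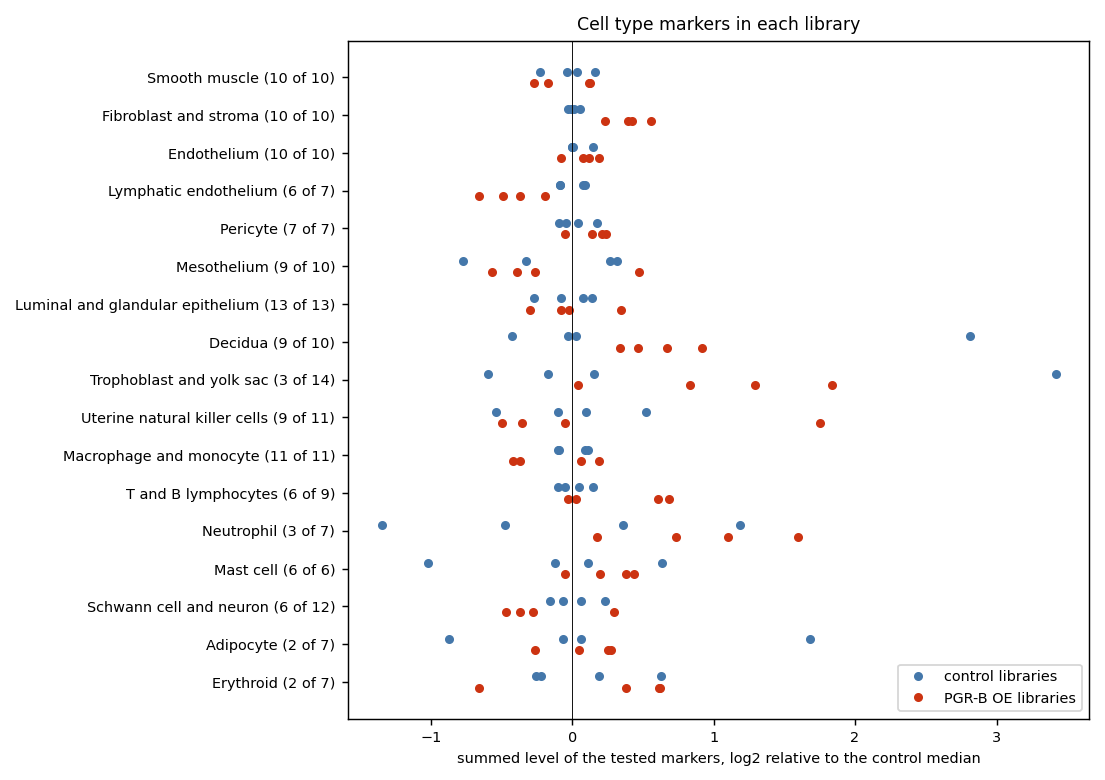
Summed level of the tested markers of each of 17 cell types in each control (blue) and PGR-B OE (red) library, as log2 relative to the control median (horizontal axis), with the number of tested markers of those listed in parentheses. The fibroblast sum, which is mostly Col1a1 and Col1a2, lies higher and the lymphatic sum lower in PGR-B OE without overlap. Control replicate 4 stands apart in decidual and trophoblast markers.

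PGR-A OE libraries served to ask whether the called genes differ between the isoforms. Over all 15381 genes of that fit 10 passed (0.065%), 6 of them higher and 4 lower in PGR-B OE. Of the 44 called genes 4 were among them, all higher in PGR-B OE. The same PGR-B OE libraries had served to call the 44, of which 40 were called as higher. That choice partly sets the direction and size of their differences from PGR-A OE. Ptn stood at 327 ± 105 CPM in PGR-A OE (log2 difference of PGR-B OE minus PGR-A OE 1.595, edgeR adjusted p = 0.0226) and Mum1l1 at 2.31 ± 0.839 CPM in PGR-A OE (2.71, adjusted p = 0.0226). L3mbtl4 stood at 4.41 ± 0.330 CPM in PGR-A OE (1.66, adjusted p = 0.00224) and Shisa6 at 0.156 ± 0.0783 CPM in PGR-A OE (3.51, adjusted p = 0.00572). L3mbtl4 and Shisa6 stayed past the threshold in all 8 fits that left out 1 library. Mum1l1 kept its call without PGR-A OE replicate 4 (0.0140) and PGR-B OE replicate 2 (0.0212) and lost it without each other library, at an adjusted p of 0.0556 to 0.123, and with the replicate number as a block its adjusted p was 0.123. Ptn kept its call without PGR-A OE replicate 4 (0.000589) and lost it without each other library, at 0.0556 to 0.124.

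Aldh1a7, which was not called against the controls, also differed between the isoforms, at 0.629 ± 0.151 CPM in PGR-A OE (log2 difference of PGR-B OE minus PGR-A OE 2.91, edgeR adjusted p = 0.00224). Among genes that did not pass between the isoforms, Npy stood at 69.5 ± 27.7 CPM in PGR-A OE, a log2 difference of 2.15 (edgeR adjusted p = 0.0599), and Calb2 at 1.18 ± 0.622 CPM in PGR-A OE, a difference of 2.24 (adjusted p = 0.154). Aldh1a1 stood at 19.7 ± 0.161 CPM in PGR-A OE (adjusted p = 0.0514). Hhatl stood at 17.6 ± 4.03 CPM in PGR-A OE and Pgr at 200.3 ± 39.2 CPM in PGR-A OE, with log2 differences of -0.42 (SE 0.19, adjusted p = 0.751) and 0.16 (SE 0.14, adjusted p = 0.870). P2rx2 stood at 20.0 ± 2.698 CPM in PGR-A OE and Pde3b at 62.6 ± 11.5 CPM in PGR-A OE. A difference that misses the threshold does not show that the isoforms act alike.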

How the data were processed

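A single table of raw counts of reads by gene, not normalized, was deposited for the 12 libraries. Trizol and column extraction, TruSeq RNA libraries and 75 bp read pairs are given per the labels' protocols. The submitters' processing notes list STAR 2.7.0f, Bowtie2 2.2.5, Subread 1.6.4, featureCounts and DESeq2, with mm10 and GRCm38. What each did, the annotation and whether strand was used are not stated there, so genes with overlapping exons or close paralogs are uncertain.

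The table held 24964 genes. In R 4.3.3, edgeR 4.0.16 (TMM scaling, filterByExpr, robust quasi-likelihood test) was fitted to 4 PGR-B OE and 4 control libraries, which left 15302 genes, with Benjamini-Hochberg adjustment over all of them and a threshold of 0.05. CPM uses TMM-scaled library sizes. DESeq2 1.42.0 and limma voom 3.58.1 were alternatives. PGR-A OE entered only the separate fit against PGR-B OE. The scripts were tested on simulated data. The titles share replicate numbers, but same-numbered deviations correlated at -0.00241, 0.0433, -0.0418 and 0.104, so the numbers were not used as pairs in the main fit. These correlations do not show that the libraries were unpaired.

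The members, lists, tests and naming rule were chosen with earlier results of these data known. The rule named Pgr, the 15 largest rises and falls past the threshold at a mean of at least 1 CPM, called members and up to 4 members of lowest p of each list, up to 4 markers per cell type and 3 called genes under 1 CPM. Every other gene named was chosen after its values were seen, including the remaining called genes. Positions come from the GENCODE annotation of GRCm38 and promoter windows from RefSeq. Some genes that count among those called are not reported by name.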

Additional observations from a re-analysis of the deposited data

Results flagged for a closer look

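In 122 sets of 4 libraries examined for a single library far from the other 3, 11 had one, where chance gives about 1 in 20. Among called genes, Calb2 was 9.23 CPM in PGR-B OE replicate 1 and 4.04 to 4.44 CPM in the other PGR-B OE libraries. Muc4 was 24.7 CPM in PGR-B OE replicate 2 (others 30.6 to 31.7), Fkbp5 166 CPM in PGR-B OE replicate 3 (others 118 to 124) and Susd5 20.4 CPM in PGR-B OE replicate 4 (others 13.3 to 14.5). In control, Wfdc6a was 0.626 CPM in replicate 3 (others 0.441 to 0.472), Col4a4 6.46 CPM in replicate 2 (others 5.23 to 5.37) and Mchr1 6.998 CPM in replicate 4 (others 10.9 to 11.4).

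Summed cell type markers gave 4 such libraries. In control replicate 4, endothelial markers summed to 873 CPM (others 787 to 791) and decidual markers to 10387 CPM (others 1100.1 to 1506). The 3 tested trophoblast and yolk sac markers, which leave out Afp, summed to 14.4 CPM there (others 0.895 to 1.503). In PGR-B OE replicate 1, uterine natural killer cell markers summed to 54.6 CPM (others 11.5 to 15.7).

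A direct test found 4 called genes to differ between the overexpression groups, all higher in PGR-B OE than in PGR-A OE on the log2 scale, L3mbtl4 by 1.66, Shisa6 by 3.51, Ptn by 1.595 and Mum1l1 by 2.71. These genes had been called as higher in the same PGR-B OE libraries, which partly sets this direction.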

How the results depend on the processing

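The count of 44 genes was 255 with DESeq2, 42 with limma voom, 45 with relative log expression factors, 47 with upper quartile factors, 58 with no count filter, 33 with a mean of at least 1 CPM, 45 without robust shrinkage and 48 with all 12 libraries. It ranged from 13 (without control replicate 1) to 47 (without control replicate 4) when 1 library was left out. With the replicate number as a block, 16 genes were called, 14 of them among the 44. Whether the numbers pair the libraries is not known. Of the called genes besides Pgr, 30 lost and 13 kept their call under the block. The log2 difference of Pgr was 0.88 and its edgeR adjusted p 0.0336 under the block, and it ranged from 0.82 to 0.96 with 1 library left out. Of the 44 called genes, 4 differed from PGR-A OE, 8 with all 12 libraries, 4 under the block, where Mum1l1 lost its call (edgeR adjusted p = 0.123), and 2 to 10 with 1 library left out, the 10 without PGR-A OE replicate 4. A difference that missed the threshold is not shown to be absent. Leaving out control replicate 4 turned the direction of the uncalled cell cycle genes Bub1b, to 0.0557, and Bub1, to 0.0994 on the log2 scale, their highest values when 1 library was left out, the lowest being -0.55 and -0.58 without control replicate 1. Of the 87 uncalled genes followed, 27 passed with DESeq2, 4 with all 12 libraries and 5 with no count filter. The causes of these changes were not tested.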

Other observations

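Outside the lists, 2 genes just missed the threshold with large differences and no overlap, and were chosen after their values were seen. Vwce, which encodes a protein with von Willebrand factor C and EGF domains, stood at 6.46, 4.67, 11.3 and 2.86 CPM in control replicates 1 to 4 and 27.3, 24.7, 48.9 and 37.0 CPM in PGR-B OE replicates 1 to 4 (log2 difference 2.45, SE 0.40, edgeR adjusted p = 0.0593). Clec1b, a C-type lectin receptor of platelets, stood at 0.416, 0.252, 0.188 and 0.177 CPM in control replicates 1 to 4 and 1.49, 2.69, 0.704 and 1.58 CPM in PGR-B OE replicates 1 to 4 (log2 difference 2.63, SE 0.45, edgeR adjusted p = 0.0568).

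A few genes were high in single libraries. PGR-B OE replicate 1 had 268 counts of the granzyme gene Gzmd and 113 of Gzme, where the other 7 libraries had 1 to 12 and 0 to 3. The same library held the highest level of Gli1, at 41.0 CPM, and of Scube1, at 54.9 CPM. The other 7 libraries had 9.87 to 20.0 CPM of Scube1. Control replicate 2 had 164 counts of Afp, a yolk sac gene, against 3 to 18 in the other libraries. The decidual prolactin gene Prl8a2 stood at 172, 446, 426 and 5012 CPM in control replicates 1 to 4 and 866, 723, 738 and 977 CPM in PGR-B OE replicates 1 to 4. Control replicate 4 was far above every other library, and the PGR-B OE libraries lay above the other 3 controls.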
